A study of Rattus norvegicus with 74 samples.

Results

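Lgr6, Prom2, Ndrg4, St3gal5, Rbpms2, Raver2 and Wdr54 are 7 of the 30560 genes counted in rat red gastrocnemius, in mitochondria isolated from it and in the left ventricle. They were chosen by symbol because their counts were higher in the muscle of trained than of sedentary rats. In the quasi-likelihood test of edgeR they are 7 of the 25 genes called higher in trained muscle, among 13570 genes tested (0.184%, with 0.0221% called lower), and they rank between the second and the twelfth of these genes by p-value. That contrast chose them, so their training difference in whole muscle is given here as a description, with no test. Their identifiers in the tables are ENSRNOG00000005093 (Lgr6), ENSRNOG00000014710 (Prom2), ENSRNOG00000012482 (Ndrg4), ENSRNOG00000010284 (St3gal5), ENSRNOG00000015896 (Rbpms2), ENSRNOG00000023812 (Raver2) and ENSRNOG00000009324 (Wdr54). Their levels in heart, in mitochondria and between ranges of rat numbers, and the training difference in heart and mitochondria, did not enter the choice and were tested.

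The study sequenced total RNA from male, wild-type Wistar Kyoto rats aged 9 weeks at the end, of 32 obtained and housed in pairs. Trained rats (ExT) ran on a treadmill from the age of 5 weeks, for 4 weeks and 5 days a week, reaching 60 min at 20 m/min, and sedentary rats (Sed) stood for as long on a treadmill that did not move. Rats of both arms drank water with 8% (v/v) deuterium oxide, and organs were collected 24 h after the final session. Each of 30 rats gave a library of whole inner red gastrocnemius, a calf muscle (SM), and a library of mitochondria captured with an antibody from a fresh piece of it and digested with proteinase-K and RNase-A (MT). The left ventricle wall (LV) was sequenced in 14 of these rats. The groups are SM_Sed, SM_ExT, MT_Sed and MT_ExT with 15 rats each, and LV_Sed and LV_ExT with 7 rats each. SM and MT libraries were made with a Zymo ribosomal-depletion kit from 50 and 10 ng of RNA, and LV libraries with an Illumina Ribo-Zero kit from 100 ng.

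The 7 genes belong to unlike systems. Lgr6 is a membrane receptor for R-spondins, secreted proteins that strengthen Wnt signalling by taking the ubiquitin ligases Znrf3 and Rnf43 off the cell surface. Prom2 is a prominin, a cholesterol-binding membrane protein of cell protrusions that has been linked to resistance to ferroptosis. Ndrg4 belongs to the N-myc downstream-regulated family and is best known from brain and heart. St3gal5 is GM3 synthase, the enzyme that puts sialic acid on lactosylceramide and so opens the synthesis of gangliosides, and its product GM3 is known to damp insulin receptor signalling. Rbpms2 is an RNA-binding protein known from smooth muscle and cardiomyocytes. Raver2 is an RNA-binding protein that binds the splicing repressor Ptbp1. Wdr54 is a protein with WD repeats.

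RefSeq promoter windows, from 250 bases before to 50 bases after an annotated start site in build GRCr8, were matched to 6 of the 7 genes and gave 9 windows; Raver2 was not matched. Since all 7 genes were higher in trained muscle, the windows were searched on both strands for the MEF2 motif, the E-box sequence CAGCTG, the TEAD motif CATTCC, the nuclear receptor core AGGTCA, the cyclic AMP response core TGACGT, the GC box GGGCGG, and TATAAA. The E-box, of the kind bound by myogenic factors, was found in 3 of the 9 windows, of Lgr6, St3gal5 and Wdr54, and 15.1% of all 33469 rat windows hold it. These windows are shown with their motifs in capitals.
Lgr6 (chr13:49095808-49096107, minus strand): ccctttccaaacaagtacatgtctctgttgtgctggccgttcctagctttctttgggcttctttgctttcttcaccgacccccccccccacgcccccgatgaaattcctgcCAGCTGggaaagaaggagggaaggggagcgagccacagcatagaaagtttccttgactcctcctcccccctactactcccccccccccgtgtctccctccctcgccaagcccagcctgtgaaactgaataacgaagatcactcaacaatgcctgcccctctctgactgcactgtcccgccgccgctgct
St3gal5, second window (chr4:105726517-105726816, plus strand): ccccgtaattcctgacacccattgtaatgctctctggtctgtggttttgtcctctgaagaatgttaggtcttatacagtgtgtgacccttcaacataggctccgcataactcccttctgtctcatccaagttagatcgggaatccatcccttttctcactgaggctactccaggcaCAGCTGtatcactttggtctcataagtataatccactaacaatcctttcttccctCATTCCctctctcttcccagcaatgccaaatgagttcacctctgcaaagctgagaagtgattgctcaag
Wdr54 (chr4:117219221-117219520, minus strand): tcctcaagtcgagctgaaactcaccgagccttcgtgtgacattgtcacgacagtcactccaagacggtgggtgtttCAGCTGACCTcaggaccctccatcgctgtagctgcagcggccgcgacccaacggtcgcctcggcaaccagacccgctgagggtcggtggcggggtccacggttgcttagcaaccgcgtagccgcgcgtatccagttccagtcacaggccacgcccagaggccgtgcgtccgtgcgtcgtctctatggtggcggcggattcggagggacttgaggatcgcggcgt
In Wdr54 the capitals also cover AGGTCA on the other strand, which overlaps the E-box, and in St3gal5 they also cover CATTCC. The nuclear receptor core is held by 16.2% and the TEAD motif by 14.2% of all windows. The MEF2 motif, held by 3.29% of windows, was found in the second of 3 Ndrg4 windows, which is shown because Ndrg4 had the highest level in heart of the 7 genes relative to muscle.
Ndrg4, second window (chr19:9380245-9380544, minus strand): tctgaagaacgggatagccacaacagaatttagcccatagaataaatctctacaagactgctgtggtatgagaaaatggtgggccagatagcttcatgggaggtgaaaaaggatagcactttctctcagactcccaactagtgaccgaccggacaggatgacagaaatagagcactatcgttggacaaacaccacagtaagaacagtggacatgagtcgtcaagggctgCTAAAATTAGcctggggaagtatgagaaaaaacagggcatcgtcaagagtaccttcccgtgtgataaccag
GGGCGG was found in 4 of the 9 windows, of Prom2, Ndrg4, St3gal5 and Rbpms2, and in 33.1% of all windows, and TATAAA in the third Ndrg4 window and in 14.2% of all windows. TGACGT was found in none of the 9 windows and in 7.94% of all. A match is a stretch of letters and not a measured binding site.

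Libraries held 19477976 to 39401323 counts in SM, 530397 to 9988027 in MT and 54645657 to 75758777 in LV. Levels are CPM, the usual library-scaled read count, scaled with TMM factors. Markers went with the tissue labels in SM and LV. Genes of skeletal fibres summed to between 79268 and 146163 CPM in SM and between 1349 and 1994 CPM in LV. Genes of cardiomyocytes summed to between 17.2 and 80.6 CPM in SM and between 27750 and 38684 CPM in LV. MT did not follow its tissue in this way. Skeletal fibre genes summed to between 380 and 1490 CPM there, and cardiomyocyte genes to between 254 and 349 CPM. Epithelial genes summed to between 78.1 and 118 CPM in MT and between 0.281 and 3.93 CPM in SM. The cardiac gene Nppa was at 0 in 24 of 30 SM libraries. Rats numbered 2 to 16 and rats numbered 17 to 32 differed in 12.5% of 13828 genes tested in SM (5.68% higher and 6.78% lower in rats 17 to 32), with equal numbers of trained and sedentary rats in each range. The labels do not say what the numbers stand for.

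All 7 genes had higher levels in trained than in sedentary muscle, between 1.37-fold (St3gal5) and 1.88-fold (Ndrg4), and in each gene the 2 arms overlapped. These are the values that chose the genes. In bulk tissue, more cells that carry a transcript and more transcript per cell cannot be told apart.

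Lgr6, the R-spondin receptor, ranged from 2.02 to 5.89 CPM in SM_Sed, with a median of 4.02, and from 5.26 to 9.51 CPM in SM_ExT, with a median of 6.33. The means were 3.85 ± 1.12 and 6.54 ± 1.17 CPM (SD, n = 15 each), and the fold by the edgeR fit was 1.69. All 15 trained rats lay above the sedentary median and 9 above every sedentary rat, and a lone sedentary rat, number 23, reached into the trained range. Prom2 ranged from 2.996 to 4.95 CPM in SM_Sed, with a median of 3.86, and from 3.66 to 6.90 CPM in SM_ExT, with a median of 5.53. Its means of 3.86 ± 0.654 and 5.59 ± 0.847 CPM were 1.45-fold apart, and 12 of 15 trained rats lay above every sedentary rat, the most of the 7 genes.

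Ndrg4 ranged from 2.04 to 4.85 CPM in SM_Sed, with a median of 2.82, and from 2.31 to 9.01 CPM in SM_ExT, with a median of 5.13. It had the highest fold of the 7 genes and also the largest spread relative to the mean among trained rats (coefficient of variation 33.7%), with means of 2.94 ± 0.879 and 5.51 ± 1.86 CPM and 11 trained rats above every sedentary rat. St3gal5, the GM3 synthase, ranged from 9.06 to 15.5 CPM in SM_Sed, with a median of 12.9, and from 11.7 to 23.9 CPM in SM_ExT, with a median of 17.6. Its means were 12.6 ± 2.10 and 17.3 ± 3.01 CPM, and 11 trained rats exceeded every sedentary rat.

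The RNA-binding proteins followed with smaller counts, from 34 to 106 per library for Rbpms2 and from 52 to 208 for Raver2. Rbpms2 ranged from 1.45 to 2.62 CPM in SM_Sed, with a median of 1.95, and from 1.92 to 3.61 CPM in SM_ExT, with a median of 2.81. Its means were 1.95 ± 0.299 and 2.77 ± 0.518 CPM, and the fold by the edgeR fit was 1.41. Raver2 ranged from 1.79 to 3.98 CPM in SM_Sed, with a median of 3.30, and from 2.94 to 6.32 CPM in SM_ExT, with a median of 4.58, and its means were 3.18 ± 0.636 and 4.61 ± 0.936 CPM. Wdr54 ranged from 1.596 to 3.21 CPM in SM_Sed, with a median of 2.40, and from 2.17 to 5.11 CPM in SM_ExT, with a median of 3.47, and its means were 2.38 ± 0.415 and 3.45 ± 0.808 CPM. In Rbpms2 and Wdr54, 9 trained rats lay above every sedentary rat, and in Raver2 11.

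The same trained rats were not low in every gene. Rats 5, 6 and 27 lay above every sedentary rat in all 7 genes. Rat 9 lay within the sedentary range in 5 of the 7 (Ndrg4, St3gal5, Rbpms2, Raver2 and Wdr54), and rats 22 and 28 in 4 each. For Prom2 the trained rats within the sedentary range were 2, 10 and 13, of which only rat 13 was also within it for Lgr6. The plot of muscle levels by arm shows these overlaps rat by rat.

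**Figure D1:**
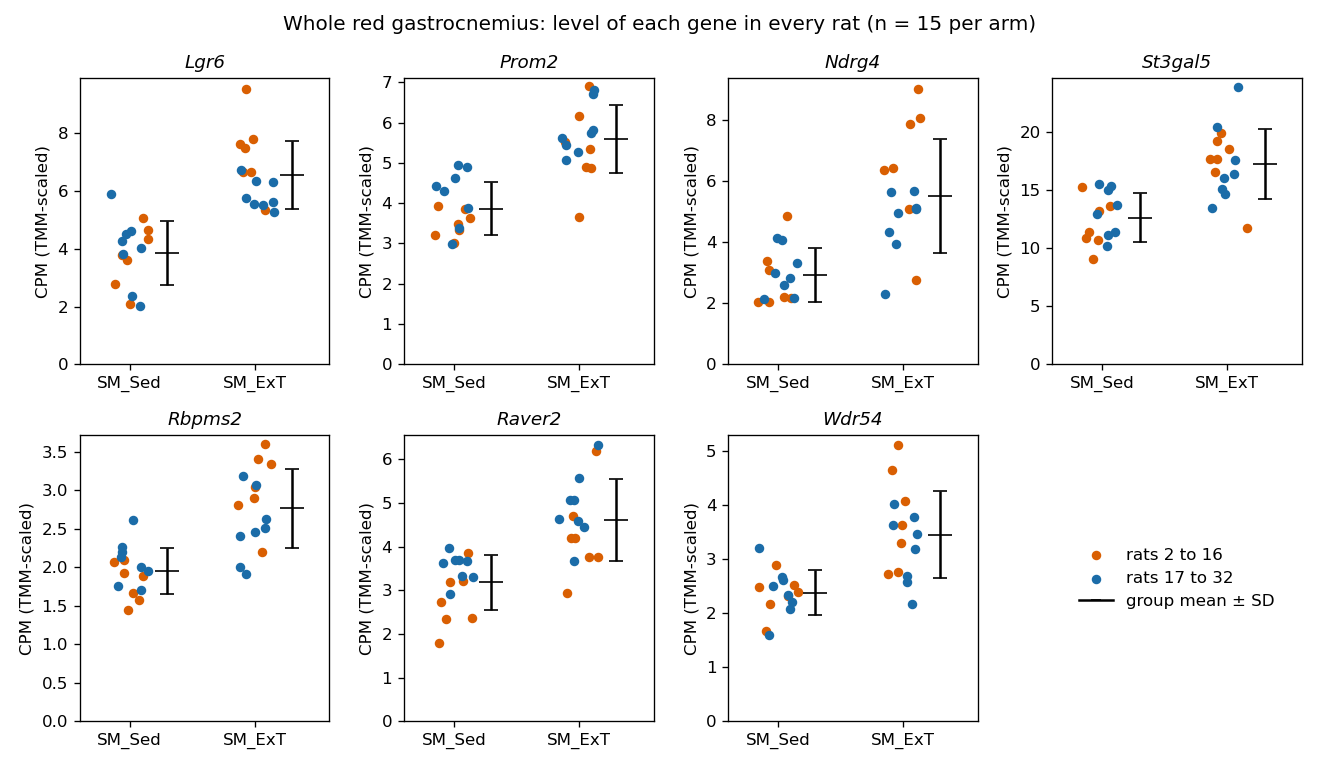
Level of each of the 7 genes in whole red gastrocnemius (vertical axis, CPM, from 0) in sedentary (SM_Sed) and trained (SM_ExT) rats, 15 in each, with points coloured by range of rat numbers and bars at the group mean ± SD. The trained mean lies above the sedentary mean in all 7 panels and the points of the 2 arms overlap in each.

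Within each range of rat numbers the trained mean was above the sedentary mean for all 7 genes. Both ranges are parts of the libraries that chose the genes, so this is a description and not a replication. The ratio of the means was larger among rats 2 to 16 (7 trained, 7 sedentary) than among rats 17 to 32 (8 and 8) in 7 of 7 genes. That difference was not tested, and the share of all genes with a larger ratio in rats 2 to 16 was not computed. It was widest for Ndrg4, at 2.30 and 1.53, followed by Rbpms2 at 1.68 and 1.21 and Lgr6 at 1.94 and 1.49. For Wdr54 the ratios were 1.59 and 1.33, for Prom2 1.53 and 1.39, for St3gal5 1.44 and 1.31 and for Raver2 1.53 and 1.40. Lgr6 and Rbpms2 did not overlap between the arms among rats 2 to 16, and Prom2 did not overlap among rats 17 to 32. These are again values that chose the genes, and the share of all genes without overlap in these ranges was not computed.

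Over both arms, the level of the 7 genes in SM did not pass the test between the 2 ranges of rat numbers. With the arm in the model, 0 of 7 were called by edgeR and 0 by DESeq2, against 12.5% of all genes, and 2 of the 7 had an unadjusted p under 0.05, which 27.2% of all genes had. Raver2 was 1.20-fold higher in rats 17 to 32 (log2 fold change 0.27, SE 0.10, edgeR adjusted p = 0.0665) and Prom2 1.13-fold higher (0.18, SE 0.08, adjusted p = 0.139). The other log2 fold changes lay between -0.23 (Ndrg4) and 0.06 (St3gal5). Among trained rats alone Lgr6 was lower in rats 17 to 32 by a log2 fold change of -0.32 (edgeR adjusted p = 0.0479). Such calls were common: every setting but sedentary rats alone had between 1505 and 1990 calls over all genes. The trained SM values also served to choose Lgr6. Among sedentary rats alone its log2 fold change was 0.06 (edgeR adjusted p = 0.922), and the difference between the arms was not tested.

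Between rats of the same arm and range, Lgr6 and Ndrg4 went with the genes of slow muscle fibres. The slow-fibre sum (Myh7, Tnnt1, Tnni1, Tnnc1, Myl2, Myl3 and Myh7b) ranged from 3595 to 21209 CPM in SM_Sed and from 3704 to 23603 CPM in SM_ExT. Most of it was Myh7, at a mean of 9137 CPM in SM, with Tnnt1 next at 1250 CPM. The share of all genes that follow this sum as closely was not computed. Over 30 rats, with arm and range means removed, Lgr6 had a Pearson r of 0.73 with it (p = 1e-05, the smallest the 100000 permutations can give, q = 0.00105; Spearman rho 0.70, p = 0.00011, q = 0.00385). Without the 2 rats farthest from the median sum r was 0.71, and it was 0.70 within rats 2 to 16 and 0.76 within rats 17 to 32. Ndrg4 had an r of 0.70 (permutation p = 3e-05, q = 0.00157; rho 0.71, p = 6e-05, q = 0.00315), 0.63 without the 2 farthest rats, and 0.65 and 0.78 within the ranges. For the other genes r with the slow-fibre sum lay between 0.11 (Raver2) and 0.47 (St3gal5, permutation p = 0.0127, q = 0.102).

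These are 2 of 105 relations computed after the data were seen, of the 7 genes with 13 marker sums, the percent of counts on the mitochondrial genome and the library total, of which 6 had q under 0.05 by both coefficients. The other 4 were Ndrg4 with the skeletal fibre genes, most of them of fast fibres (r -0.62, permutation q = 0.00735; rho -0.70, q = 0.00315), and Ndrg4, Lgr6 and St3gal5 with the cardiomyocyte sum (r 0.62, 0.61 and 0.54, permutation q = 0.00735, 0.0237 and 0.0459). In SM that sum was mostly Actc1, at a mean of 28.3 CPM, with Myh6 at 7.52 and Tnnt2 at 3.34 CPM. Each other gene of the list averaged at most 0.652 CPM, and Nppb and Myl7 were at 0 in 28 and 22 of 30 libraries. The relations are thus with few genes and not with the list as a set. By rank the cardiomyocyte relations had rho of 0.66, 0.57 and 0.55 (permutation q = 0.0063, 0.0346 and 0.0449). Without the 2 rats farthest from the median sum, r was -0.53 for the skeletal fibre genes, and 0.54, 0.51 and 0.47 for the cardiomyocyte genes. The relation of Ndrg4 with the skeletal fibre sum had an r of -0.76 within rats 2 to 16 and -0.48 within rats 17 to 32. Rbpms2, known from smooth muscle, had an r of 0.08 with the smooth muscle sum (permutation q = 0.780). Within rat ranges the 3 relations with the cardiomyocyte sum had r between 0.44 and 0.78.

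**Figure D2:**
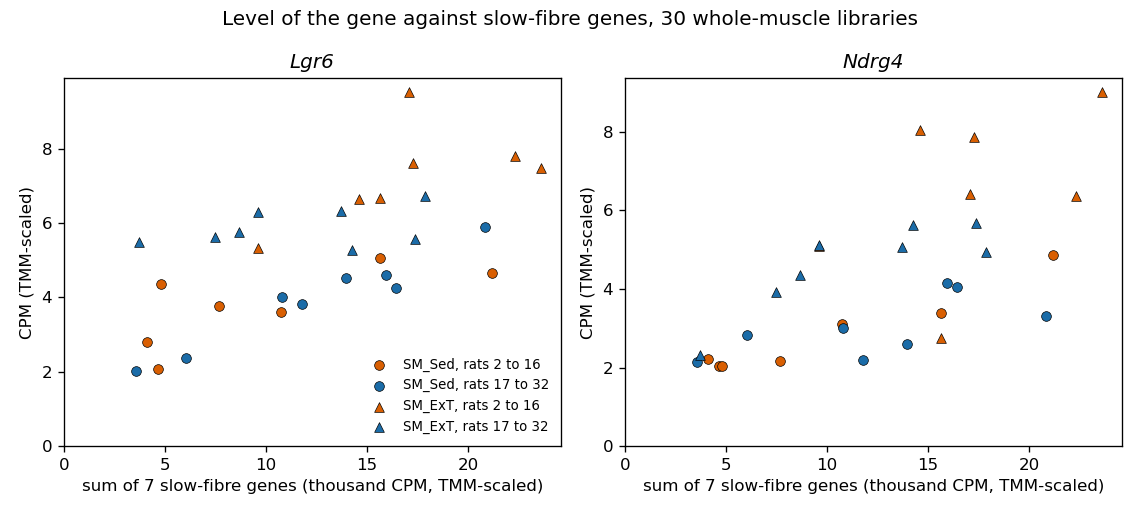
Level of Lgr6 (left) and Ndrg4 (right) in CPM against the sum of 7 slow-fibre genes (horizontal axis) in the 30 whole-muscle libraries, circles for sedentary and triangles for trained rats, coloured by range of rat numbers. Both genes are higher in rats with a larger slow-fibre sum within each arm.

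Of the genes of the 13 marker lists none passed the test between the arms of SM by edgeR or DESeq2, while 13.7% of the 13570 genes tested had an unadjusted p under 0.05. Of 8 skeletal fibre genes 1 had a log2 fold change above 0 (median -0.15), with 4 at an unadjusted p under 0.05, and their sum ranged from 79268 to 119923 CPM in SM_ExT and from 82485 to 146163 CPM in SM_Sed. Of 4 cardiomyocyte genes tested 4 were above 0 (median 0.31), with 0 at an unadjusted p under 0.05. All 7 slow-fibre genes had a log2 fold change above 0 (median 0.34), with 0 at an unadjusted p under 0.05. All 8 smooth muscle and pericyte genes were above 0 with 6 at an unadjusted p under 0.05, and their sum ranged from 490 to 846 CPM in SM_ExT and from 344 to 681 CPM in SM_Sed. All 6 endothelial genes tested were above 0 with an unadjusted p under 0.05. Of the Schwann cell and nerve genes 6 of 6 tested were above 0 with 2 at an unadjusted p under 0.05, and their sum ranged from 36.7 to 174 CPM in SM_ExT and from 19.8 to 142 CPM in SM_Sed. Epithelial genes, which Prom2 is known to accompany, summed to between 0.281 and 3.93 CPM, with Krt5 at 0 in 23 of 30 libraries. Of 6 fibroblast genes and 5 immune genes tested, 0 were above 0, with 0 and 3 at an unadjusted p under 0.05. The part of these markers in the training difference of the 7 genes was not tested.

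Among themselves the 7 genes varied together only weakly between rats of a group. Of 21 pairs, 19 had an r above 0, with a median of 0.25. Ndrg4 with St3gal5 was the only pair past the threshold by r (r = 0.61, permutation p = 0.00111, q = 0.0233), and it did not pass by rank (rho = 0.52, p = 0.0053, q = 0.111). Its r was 0.43 without the 2 rats farthest from the median, 0.71 within rats 2 to 16 and 0.51 within rats 17 to 32. Other pairs differed more by range. Ndrg4 with Rbpms2 had an r of 0.80 within rats 2 to 16 and 0.02 within rats 17 to 32, and Rbpms2 with Raver2 0.76 and 0.20. Some pairs went the other way, such as Lgr6 with Prom2, at 0.17 and 0.70. The difference between ranges was not tested.

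Each gene was also set against 11466 named genes with a mean of at least 1 CPM, by Pearson r of the same residuals over the 30 SM libraries, as a description. Lgr6 was most like Pnpla2, the main triglyceride lipase (r = 0.82), and Idh2, the mitochondrial isocitrate dehydrogenase (0.82). Ndrg4 was most like Rrp1b (0.82), St3gal5 most like Tmem229b (0.83) and Bpnt1 (0.70), and Prom2 most like Fam71e1 (0.78) and Kcnn1, a small-conductance potassium channel (0.72). Wdr54 was most like Grwd1 (0.74) and Bub3 (0.73), Rbpms2 most like Zbtb8a (0.70) and Ctsf, a lysosomal protease (0.66), and Raver2 most like Ush1g (0.65) and Sh2d4a (0.62). The libraries share their depth and fibre makeup across all these genes.

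No gene of the wider pathways passed the edgeR test in trained muscle, and the counts at an unadjusted p under 0.05 given for each list stand against 13.7% of all genes tested. In LV and MT training 0 genes of these lists were called by edgeR or DESeq2, with 0 to 2 genes of each list at an unadjusted p under 0.05. Of the 25 other genes of the list of R-spondin receptors and their Wnt pathway, 21 could be tested and 0 were called by edgeR or DESeq2, with 4 at an unadjusted p under 0.05 and a median log2 fold change of 0.08 against -0.01 over all genes. The sister receptor Lgr4 averaged 21.9 ± 2.01 CPM in SM_ExT and 20.7 ± 1.97 in SM_Sed, and Lgr5 had 0 to 6 counts per library and could not be tested. Of the ligands, Rspo3 averaged 4.05 ± 1.74 and 3.14 ± 1.78 CPM (log2 fold change 0.36, SE 0.26, edgeR adjusted p = 0.563), Rspo1 0.774 ± 0.305 and 0.749 ± 0.326 CPM, and Rspo4 0.495 ± 0.184 and 0.577 ± 0.187 CPM. Rspo2 had 0 to 9 counts per library and was not tested.

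Of 11 other prominin and ferroptosis-defence genes tested, 0 were called by edgeR, with 4 at an unadjusted p under 0.05 and a median log2 fold change of -0.01. DESeq2, which called 133 genes over all genes in this contrast, called 1 of the list, the transferrin receptor Tfrc, named here after its value was seen. Tfrc averaged 392 ± 109 CPM in SM_ExT and 272 ± 74.0 in SM_Sed (edgeR adjusted p = 0.0974, DESeq2 adjusted p = 0.0227). Prom1, the other prominin, averaged 15.9 ± 1.57 and 14.3 ± 2.84 CPM (log2 fold change 0.15, SE 0.08, edgeR adjusted p = 0.389). Of the 3 other NDRG genes 0 were called by either tool, with 0 at an unadjusted p under 0.05. Ndrg2, the family member with a long record in muscle, averaged 562 ± 59.7 and 545 ± 56.3 CPM, Ndrg1 13.6 ± 3.66 and 11.6 ± 3.03 CPM, and Ndrg3 1.67 ± 0.497 and 2.04 ± 0.701 CPM.

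Of 19 other genes of ganglioside metabolism tested, 0 were called by edgeR or DESeq2, with 4 at an unadjusted p under 0.05 and a median log2 fold change of 0.02. The sialyltransferase St3gal1 averaged 67.2 ± 13.7 CPM in SM_ExT and 77.9 ± 25.5 in SM_Sed, and St3gal2 46.0 ± 6.55 and 42.5 ± 4.23 CPM. Of 18 other genes of the RBPMS and raver families and muscle splicing regulators, 0 were called by either tool, with 3 at an unadjusted p under 0.05 and a median of -0.01. Rbpms averaged 10.1 ± 1.06 and 9.82 ± 1.72 CPM, and Raver1 20.7 ± 3.33 and 20.7 ± 2.67 CPM. Of 15 genes known to respond to endurance training, 14 had a log2 fold change above 0 (median 0.19) and 6 an unadjusted p under 0.05, and 0 were called by edgeR. DESeq2, with its 133 calls over all genes, called 1 of them, the citrate synthase gene Cs, also named after its value was seen. Cs averaged 426 ± 28.5 CPM in SM_ExT and 367 ± 46.7 in SM_Sed (edgeR adjusted p = 0.103, DESeq2 adjusted p = 0.0286).

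In the left ventricle, training was not followed by a detectable change in any of the genes that could be tested. Prom2, with 0 to 8 counts per library, did not pass the filter on low counts. Of the other 6, 0 were called by edgeR or DESeq2, where the background is 0% of 14488 genes (855, or 5.90%, at an unadjusted p under 0.05), and 2 had an unadjusted p under 0.05.

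Ndrg4 ranged from 187 to 288 CPM in LV_Sed, with a median of 265, and from 246 to 347 CPM in LV_ExT, with a median of 299. Its means were 250.6 ± 33.95 and 296 ± 35.6 CPM (SD, n = 7 each), a log2 fold change of 0.24 (SE 0.09, edgeR unadjusted p = 0.0175, adjusted p = 0.804), and 4 trained rats lay above every sedentary rat. St3gal5 ranged from 31.04 to 39.7 CPM in LV_Sed, with a median of 34.1, and from 33.8 to 47.9 CPM in LV_ExT, with a median of 40.2 (log2 fold change 0.18, SE 0.08, edgeR unadjusted p = 0.0396, adjusted p = 0.804). Lgr6 ranged from 10.99 to 18.6 CPM in LV_Sed, with a median of 15.9, and from 12.5 to 26.3 CPM in LV_ExT, with a median of 19.1 (log2 fold change 0.30, 95% interval -0.003 to 0.60, edgeR adjusted p = 0.804). In all 3 the arms overlapped. The cardiomyocyte genes lay above 0 in 9 of 9 members in the same contrast, with 1 at an unadjusted p under 0.05, and their sum ranged from 31099 to 38684 CPM in LV_ExT and from 27750 to 35338 CPM in LV_Sed. Their part in the values of Ndrg4, St3gal5 and Lgr6 was not tested.

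Rbpms2 in LV had a log2 fold change of 0.03 with a 95% interval from -0.11 to 0.17, and averaged 15.1 ± 1.47 CPM in LV_ExT and 14.7 ± 1.38 in LV_Sed. Wdr54 had a log2 fold change of 0.08 (-0.24 to 0.40). Raver2 pointed the other way, from 0.331 to 1.17 CPM in LV_ExT and from 0.557 to 1.41 in LV_Sed, with a log2 fold change of -0.46 (-1.03 to 0.10, edgeR adjusted p = 0.825) and no trained rat above every sedentary rat. Both arms overlapped in each gene. LV held 2 rats of the range 2 to 16 and 12 of the range 17 to 32. With rats 17 to 32 alone 0 of the 6 genes tested were called as well. Their ratios of the means there were 1.35 for Lgr6, 1.24 for Ndrg4, 1.14 for St3gal5, 1.05 for Rbpms2, 1.09 for Wdr54 and 0.609 for Raver2. Trained rat 14 was lower than sedentary rat 16 in Lgr6 (12.5 and 18.6 CPM), Ndrg4 (246 and 288 CPM), Rbpms2 and Wdr54, and higher in St3gal5 and Raver2. The difference between ranges was not tested in LV.

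**Figure D3:**
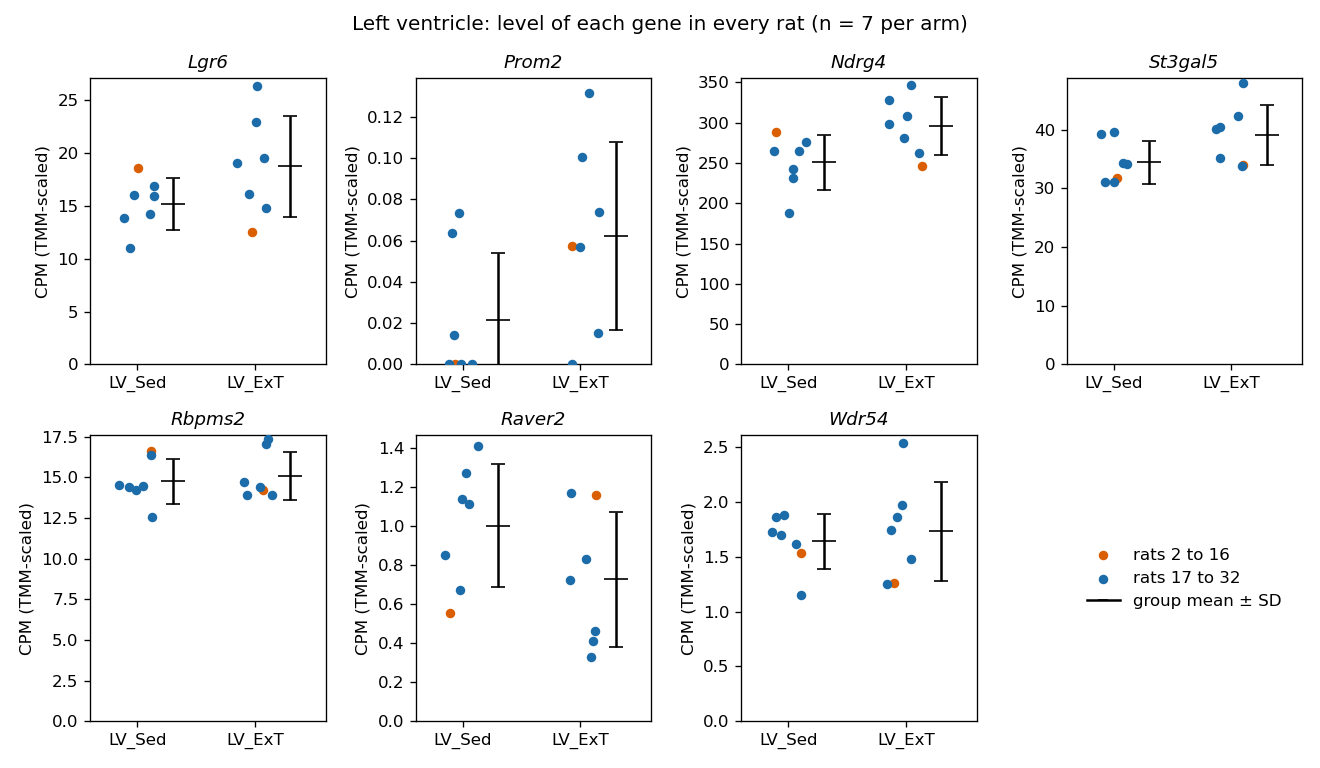
Level of each of the 7 genes in the left ventricle (vertical axis, CPM, from 0) in sedentary (LV_Sed) and trained (LV_ExT) rats, 7 in each, coloured by range of rat numbers, with bars at the group mean ± SD. The arms overlap in every panel, and Prom2 lies between 0 and 0.132 CPM.

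In isolated mitochondria 0 of the 7 genes changed with training by edgeR or DESeq2, against 0% of 19281 genes (912, or 4.73%, at an unadjusted p under 0.05), and 1 of the 7 had an unadjusted p under 0.05. That gene was Wdr54, which ranged from 24.0 to 41.8 CPM in MT_Sed, with a median of 28.9, and from 28.1 to 49.6 CPM in MT_ExT, with a median of 35.0. Its log2 fold change was 0.23 (SE 0.09, edgeR unadjusted p = 0.0114, adjusted p = 0.9997), with 14 of 15 trained rats above the sedentary median and overlapping arms. Raver2 had a log2 fold change of 0.19 (95% interval -0.05 to 0.42), Lgr6 0.05 (-0.13 to 0.23) and Prom2 0.03 (-0.16 to 0.21). Ndrg4, at -0.04 (-0.27 to 0.18), St3gal5, at -0.06 (-0.31 to 0.19), and Rbpms2, at -0.12 (-0.42 to 0.18), were at or below 0. Counts per MT library ranged from 4 (Rbpms2) to 113 (Prom2). Whether the training difference itself differed between tissues was not tested, because the SM values chose the genes.

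**Figure D4:**
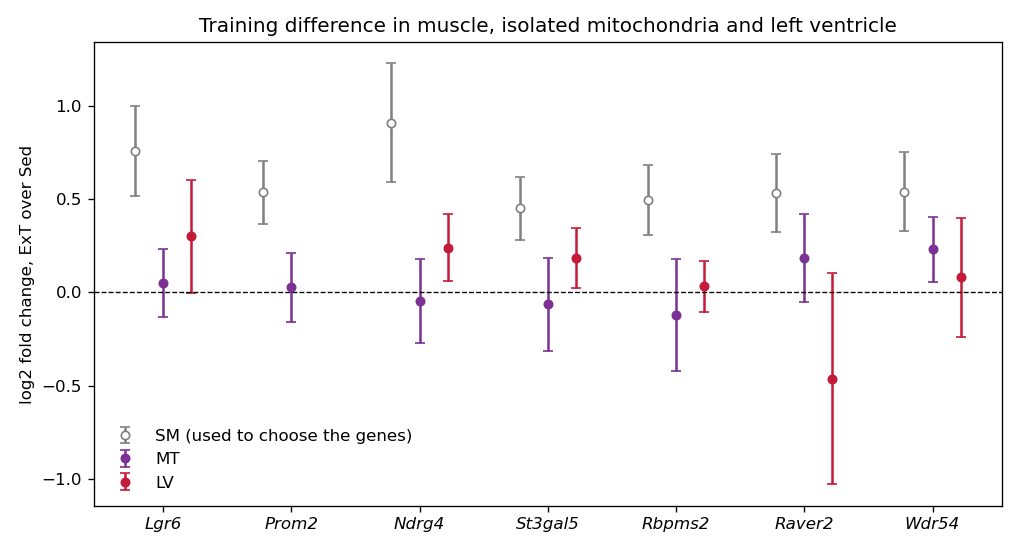
Training difference of each gene (log2 fold change, trained over sedentary, vertical axis) in whole muscle (open grey points, the values that chose the genes), isolated mitochondria (purple) and left ventricle (red), with 95% intervals as bars. The MT points lie between -0.12 and 0.23 and the LV points between -0.46 and 0.30, and LV has no Prom2 point because it had too few counts.

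The 7 genes stood at very different levels in heart and in muscle of the same 14 rats. With both tissues on a joint scale and arm in the model, all 7 differed by edgeR, 4 higher and 3 lower in LV, where 85.5% of the 14707 genes tested differed (43% higher and 42.5% lower), so a difference as such is common. Library kit and tissue cannot be told apart in this comparison. The share of all genes without overlap between LV and SM was not computed, so an absence of overlap is a description. Ndrg4 ranged from 170 to 324 CPM in LV and from 2.34 to 6.92 CPM in SM, 57.8-fold apart (log2 fold change 5.85, SE 0.11, edgeR adjusted p = 4.7e-30). Rbpms2 ranged from 11.4 to 16.1 CPM in LV and from 1.82 to 3.43 CPM in SM, 5.60-fold apart (log2 fold change 2.48, SE 0.08, adjusted p = 2.5e-24). In both genes every heart library lay above every muscle library.

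Lgr6 averaged 15.7 ± 3.83 CPM in LV and 5.62 ± 1.79 in SM. Its fold by the edgeR fit was 2.84 (log2 fold change 1.51, SE 0.12), with 13 of 14 heart libraries above every muscle library. St3gal5 averaged 34.002 ± 4.52 and 16.4 ± 3.96 CPM, with a fold by the fit of 2.09 (1.07, SE 0.08) and no overlap. Wdr54 was lower in heart, at 1.56 ± 0.323 CPM against 3.02 ± 0.712 (-0.94, SE 0.11), with overlapping tissues. Raver2 averaged 0.798 ± 0.316 CPM in heart and 4.45 ± 1.06 in muscle (-2.46, SE 0.18), with no overlap.

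Prom2 had the largest fold of the 7 genes between the tissues, and it was lower in heart. It had 0 to 8 counts in LV libraries, which are deeper, with 5 of 14 at 0, and 87 to 234 counts in the SM libraries of the same rats, or 0.0387 ± 0.0401 CPM against 5.33 ± 1.21 (log2 fold change -7.06, SE 0.24, edgeR adjusted p = 6.1e-23). Prom1, the other prominin, did not share this pattern and was higher in heart, at 20.8 ± 2.63 against 16.5 ± 2.42 CPM (0.33, SE 0.07, edgeR adjusted p = 4.9e-05). Of the partners of Lgr6, the ligand gene Rspo3 had 0 to 14 counts per heart library and averaged 0.0438 ± 0.0565 CPM there against 4.44 ± 2.05 in muscle (-6.54, SE 0.40, edgeR adjusted p = 4.4e-15). Ndrg2 averaged 546 ± 46.3 CPM in heart and 591 ± 56.2 in muscle (-0.11, SE 0.05, adjusted p = 0.0486), and Rbpms 42.5 ± 2.80 and 10.5 ± 1.51 CPM (2.02, SE 0.06, adjusted p = 3.6e-25), the same direction as Rbpms2. Of the other genes of the Wnt list, 5 were higher and 11 lower in heart of 21 tested, and of the ganglioside list 8 were higher and 12 lower of 21. The 3 other NDRG genes were all lower in heart, the direction opposite to Ndrg4.

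**Figure D5:**
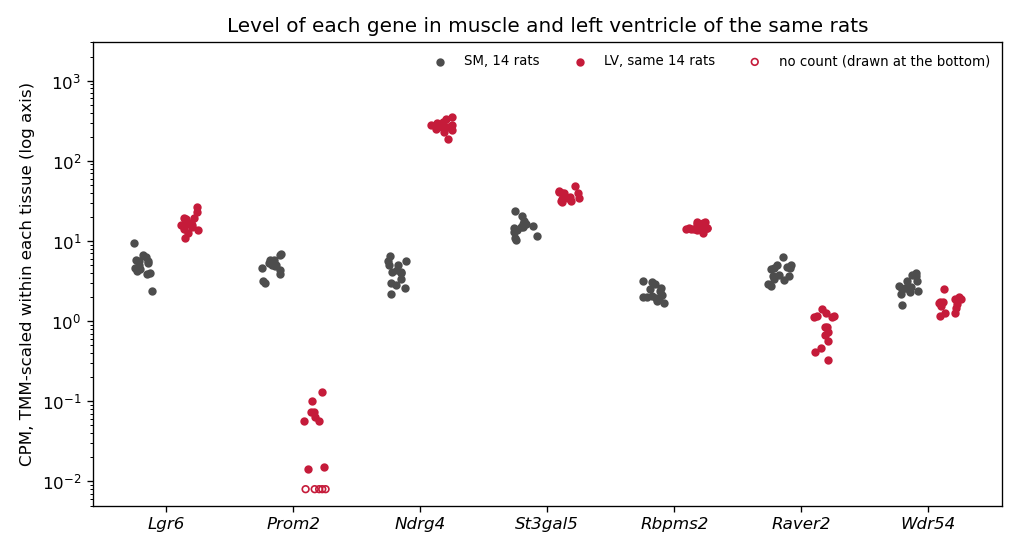
Level of each gene (CPM, log axis, scaled within each tissue, so that values differ slightly from the joint scale of the test) in muscle (grey) and left ventricle (red) of the same 14 rats, with open points at the bottom for libraries without a count. Ndrg4, Rbpms2 and St3gal5 lie higher in every heart library, and Prom2 and Raver2 lower in every heart library.

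In the mitochondrial libraries all 7 genes were counted in each of the 30 rats. On the joint scale of MT and SM, 6 of the 7 were higher in MT and St3gal5 was lower, where 96.7% of 26858 genes tested differed, 67.1% higher in MT and 29.6% lower. Over all genes the median log2 fold change was 3.16, and all 7 genes lay below it. The share of all genes without overlap between MT and SM was not computed. Wdr54 had the largest value, 2.07 (SE 0.08), with 20.0 ± 3.60 CPM in MT and 4.82 ± 1.504 in SM and no overlap. Prom2 followed at 1.47 (SE 0.08), Lgr6 at 1.33 (SE 0.09), Ndrg4 at 1.08 (SE 0.13), Rbpms2 at 0.81 (SE 0.10) and Raver2 at 0.73 (SE 0.08), all past the edgeR threshold and all overlapping.

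St3gal5 was the exception, at 9.25 ± 1.99 CPM in MT and 24.6 ± 6.02 in SM (log2 fold change -1.40, SE 0.08, edgeR adjusted p = 1.1e-28), with no overlap. Its direction rests on the scaling: with library totals alone it was 0.31 (adjusted p = 0.129). The other 6 stayed higher in MT, but their log2 fold changes also moved, to 3.04 for Lgr6, 3.21 for Prom2, 2.91 for Ndrg4, 2.52 for Rbpms2, 2.45 for Raver2 and 3.78 for Wdr54, while the median over all genes moved to 4.83. In MT libraries the 1262 odorant and vomeronasal receptor genes took 1.69% of nuclear-encoded counts on average in MT, against 0.00121% in SM and 0.00206% in LV. The part of this in the MT levels of the 7 genes was not tested. Between the 2 ranges of rat numbers 0 of the 7 genes differed in MT by edgeR, against 1.58% of 20430 genes (0.666% higher and 0.915% lower in rats 17 to 32), and 0 had an unadjusted p under 0.05, which 16.7% of all genes had. By DESeq2, which gave 5 of the 7 an adjusted p, 0 differed.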

How the data were processed

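The values are whole-number counts per gene that the authors deposited as 3 tables, for SM, MT and LV, with Ensembl identifiers and symbols. The submitters' processing notes name FastQC 0.74, cutadapt 4.6, STAR 2.7.11a, HTSeq and the build mRatBN7.2; the annotation release and strand setting are not given in the sources used here, so overlapping or antisense genes may share reads. No count column belonged to another sample. Groups were taken from sample titles. The 7 genes, the gene lists and the tests were chosen with earlier results of these data known.

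Counts were tested with edgeR 4.0.16 (R 4.3.3; quasi-likelihood F test, TMM, filterByExpr, robust dispersions), each on its own groups, with Benjamini-Hochberg adjustment over all genes tested and a threshold of 0.05. The script was tested on simulated data. DESeq2 1.42.0 was the alternative test. Intervals of log2 fold changes are 95% intervals from the SE and the normal distribution. The SE was derived from the log2 fold change and its F statistic. With few rats, as in LV, these intervals are somewhat narrower than the F test implies. Correlations used residuals of log2(CPM + 0.5) from the means of arm and rat range, with two-sided permutation tests of 100000 resamples within arm and range (Python 3.11.15, numpy 2.4.6, pandas 2.3.3, scipy 1.17.1). Genes named beside the 7 are the close relatives in each list whatever their result, genes called in a list, and the 2 genes most like each of the 7. 1 result of this rule is not reported here.

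The libraries of a rat come from the same animal, so rat numbers pair SM with MT and LV. Deviations from the arm means had a median correlation of 0.02 between the SM and MT libraries of a rat (0.001 between rats, 8595 genes) and of 0.05 between SM and LV (-0.01, 7976 genes). No pair of libraries in a group agreed within sampling noise (smallest chi-square per degree of freedom 1.20), and each counted as a replicate.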

Additional observations from a re-analysis of the deposited data

How the results depend on the processing

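Results were recomputed with size factors of the DESeq2 kind, library totals alone, no filter, DESeq2, nuclear-encoded genes alone, the rat range as a covariate for the training tests, and, for MT and LV training alone, each library left out in turn. In LV against SM all 7 genes stayed past the threshold with both other scalings, no filter, DESeq2 and nuclear-encoded genes alone. With the replicate number as a block, 7 of 7 genes still differed between MT and SM and 7 of 7 between LV and SM. Over all genes 25960 and 12509 were called with the block, against 25978 and 12573 without it.

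Among trained rats alone 1 of the 7 genes, Lgr6, differed between ranges in SM. Over all genes, every setting of that test but sedentary rats alone had between 1505 and 1990 calls. With residuals from the arm alone 4 pairs of genes passed by r in place of 1. Over all genes, SM training had 133 calls by DESeq2 (101 higher, 32 lower) and 43 with the rat range as a covariate, against 28 (25 higher, 3 lower). MT against SM had 13929 calls after thinning to the smallest nuclear-encoded total, against 25978. The rat range had 35 calls in SM among sedentary rats, against 1724. In MT it had 5 among sedentary rats, 0 among trained rats and 0 with library totals, against 323.

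Reversed signs occurred only where no call was made, except for St3gal5 between MT and SM (0.31 with library totals). With library totals the log2 fold change was 0.0348 for St3gal5 in MT training and -0.30 for Rbpms2 between ranges in MT. Among sedentary rats alone the range difference in SM was 0.0608 for Lgr6, 0.0876 for Ndrg4, 0.20 for Rbpms2 and 0.0209 for Wdr54, and in MT 0.0315 for Ndrg4, 0.12 for St3gal5, -0.00198 for Rbpms2 and 0.11 for Wdr54. Among trained rats alone it was -0.0171 for St3gal5 in SM and 0.0307 for Raver2 in MT. With a library left out, the log2 fold change in MT training ranged from -0.0120 to 0.0777 for Prom2, from -0.10 to 0.00174 for Ndrg4 and from -0.10 to 0.000424 for St3gal5. In LV training it ranged from -0.00439 to 0.0633 for Rbpms2 and from -0.0347 to 0.14 for Wdr54. The cause of these changes was not tested. Prom2 had too few counts in LV for a training test.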
